A study of Mus musculus with 6 samples.

Results

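The genes described here act at the G2/M transition and on the mitotic spindle. They were chosen by symbol: 38 genes were listed by name, and every probe whose platform annotation carried one of those symbols was taken. All 38 were measured, by 77 probes, among 19057 genes and 45281 probes in all. RNA came from male mice with T cell acute lymphoblastic leukemia (T-ALL) that had been induced by NOTCH1. Bone marrow cells carrying GFP, CD4 and CD8 were sorted 4 weeks after transplantation. The 6 samples, 1 array each, form 2 groups of 3. Samples described as Wild Type 1 to 3 are called control 1 to 3 here. Those described as Knock Out 1 to 3 are called Klf4-deficient 1 to 3. NOTCH1 induction, transplantation and the sort are common to both groups, which differ by Klf4 status, Klf4 being a zinc finger transcription factor that restrains the cell cycle in many tissues. How Klf4 was inactivated, and in which cells, is not given in the sources used here, nor is it stated that the samples of a group came from separate animals. A p-value here therefore covers only sample-to-sample spread, which may be technical.

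Cells enter mitosis when cyclin A and cyclin B activate the kinase CDK1, which is released from inhibition by the CDC25 phosphatases and reinforced by the kinases PLK1 and Aurora A. The spindle assembly checkpoint holds the anaphase-promoting complex inactive until every kinetochore is attached. CDC20 then activates that complex, securin and cyclin B are destroyed, and separase opens cohesin. Transcription of these genes peaks late in the cycle through the cell cycle genes homology region (CHR), a short promoter element bound by the DREAM and MMB-FOXM1 complexes, together with CCAAT boxes bound by NF-Y. In the thymus and in T-ALL their summed level is commonly read as the share of cells that divide. In bulk RNA, fewer cells of a type and less RNA per cell cannot be told apart.

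Promoter sequences are shown because these elements are the known common feature of G2/M promoters. RefSeq promoters on the mouse build GRCm38.p6, each running from 250 bases before to 50 bases after an annotated start, were matched for 31 of the 38 genes (34 promoters). Ccna2, Cdc25c, Aurkb, Incenp, Foxm1, Kif20a and Tpx2 had no match. The 2 CHR forms TTTGAA and TTTAAA and the box CCAAT were searched on both strands, and no match of one motif overlapped a match of another. TTTGAA was in 25 of the 34 member promoters (73.5%) and in 17.9% of all 32851 promoters of that length. TTTAAA was in 8 (23.5%) against 13.2%, and CCAAT was in 27 (79.4%) against 37.4%. TTTGAA and CCAAT stood together in 22 (64.7%) against 6.95%. In 23 of the 25 promoters with TTTGAA the nearest match lay within 50 bases of the start. The window ends 50 bases after the start, so any match after the start falls in that range. The share was not taken for all promoters, so the count does not show that matches gather at the start. Among 108 promoters of other mitosis genes, TTTGAA was in 40.7% and CCAAT in 59.3%. Among 52 promoters of G1/S and replication genes, these shares were 11.5% and 55.8%. Nusap1, Mad2l1 and Pttg1 held none of the 3 motifs, and Birc5 held TTTAAA without the others. A match is a description of the letters in the window, not a site in use.

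Printed are the 200 bases before the start of 4 members whose signal is given per array below and whose window held a CHR form and CCAAT, in the direction of transcription. Capitals mark matches to the motifs on either strand. A TTTGAA of the opposite strand reads as TTCAAA here, and a CCAAT of the opposite strand reads as ATTGG.
Top2a, chr11:99024190-99024389, minus strand: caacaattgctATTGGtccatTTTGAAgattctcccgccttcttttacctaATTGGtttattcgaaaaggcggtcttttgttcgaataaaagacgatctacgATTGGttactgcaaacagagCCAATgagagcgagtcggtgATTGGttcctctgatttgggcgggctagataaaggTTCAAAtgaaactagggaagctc
Cdc20, chr4:118437344-118437543, minus strand: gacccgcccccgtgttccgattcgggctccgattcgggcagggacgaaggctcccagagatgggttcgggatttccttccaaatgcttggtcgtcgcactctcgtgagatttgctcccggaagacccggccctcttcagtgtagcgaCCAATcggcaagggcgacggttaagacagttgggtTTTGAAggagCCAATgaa
Cdk1, chr10:69352913-69353112, minus strand: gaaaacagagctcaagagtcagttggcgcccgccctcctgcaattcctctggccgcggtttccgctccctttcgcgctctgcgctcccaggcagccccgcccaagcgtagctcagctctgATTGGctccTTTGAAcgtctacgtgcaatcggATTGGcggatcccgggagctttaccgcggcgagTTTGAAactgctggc
Plk1, chr7:122159235-122159434, plus strand: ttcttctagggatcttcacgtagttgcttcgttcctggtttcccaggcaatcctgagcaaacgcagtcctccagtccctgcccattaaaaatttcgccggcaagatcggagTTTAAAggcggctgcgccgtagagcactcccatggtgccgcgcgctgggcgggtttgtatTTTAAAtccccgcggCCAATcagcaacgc
Top2a held 2 TTTGAA and 5 CCAAT, with the nearest TTTGAA beginning 23 bases before the start. Cdc20 held 1 TTTGAA and 2 CCAAT, the former 18 bases before the start. Cdk1 held 2 TTTGAA, the nearer 15 bases before the start, and 2 CCAAT. Plk1 held no TTTGAA in this window but 2 TTTAAA and 1 CCAAT. Its 1 TTTGAA, counted above, begins 30 bases after the start and so lies outside the bases printed.

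The deposited values are background-subtracted probe signals on a linear scale, with no unit. Mean signal per array lay between 359 (Klf4-deficient 3) and 445 (control 3), and 37.9% to 38.5% of probes passed the background limit, which was 3 SD of the background estimated from the negative values (21.8 to 23.7). How precise a value can be is limited by having 3 arrays per group. Cd8b1 (25892 to 29424), Cd4 (1044 to 1477) and Cd3e (11577 to 15232) carried signal on all 6 arrays, while the Cd8a probe (at most 34.0) was dim. Klf4 read 44.0, 18.4 and 24.6 on the control arrays and 80.6, 46.0 and 85.4 on the Klf4-deficient arrays. The log2 difference was 1.03 ± 0.33 (SE, limma adjusted p = 0.571). The Klf4 signal is thus not lower under the Knock Out label. Where the probe lies against the inactivated part of the gene is not given in the sources used here. The Klf4 signal therefore does not check the label, and the group keeps the name Klf4-deficient below.

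Of the 38 members, 28 passed the background limit on all 6 arrays. Ccna2 (cyclin A2) did so on 5 arrays and Ect2 (which acts in cytokinesis) on 4. The other 8 passed on none: Ccnb2 (cyclin B2), Cks2, Nek2, Hmmr, Bub1, Ttk, Cenpe and Kif20a. For these 8 the probes give no level, and no fold is given.

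No member differed between the groups at an adjusted p under 0.05. The count was 0 of 38 in limma with Benjamini-Hochberg adjustment over all 19057 genes, where 0.0105% of all genes were called (2 genes). At an unadjusted p under 0.05 the count was 1 of 38, against 7.6% of all genes. The 3 values of each group did not overlap for 1 of 38 members, against 11.6% of all genes. Both counts were Ttk, a checkpoint kinase whose probe was under the background limit on every array (17.6, 9.3 and 7.8 in controls, 4.5, -0.8 and 4.2 in Klf4-deficient arrays). The median log2 difference, Klf4-deficient minus control, was -0.01 over the 38 members, over the 28 above background and over the 8361 genes above background on all arrays. Among the 28 members, 13 lay above 0 and 15 below. They ranged from -0.24 ± 0.17 for Pttg1 to 0.23 ± 0.19 for Tpx2 (SE, n = 3 per group), the smallest limma adjusted p being 0.783. Arrays bound these differences loosely. The median limits of the 95% interval were -0.50 and 0.52, and the widest single limits were -0.75 (Kif11) and 0.73 (Cenpf). The intervals hold the changes that 3 arrays per group leave possible, and they are not a limit of detection. The p-values therefore do not show that the groups have equal levels.

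**Figure D1:**
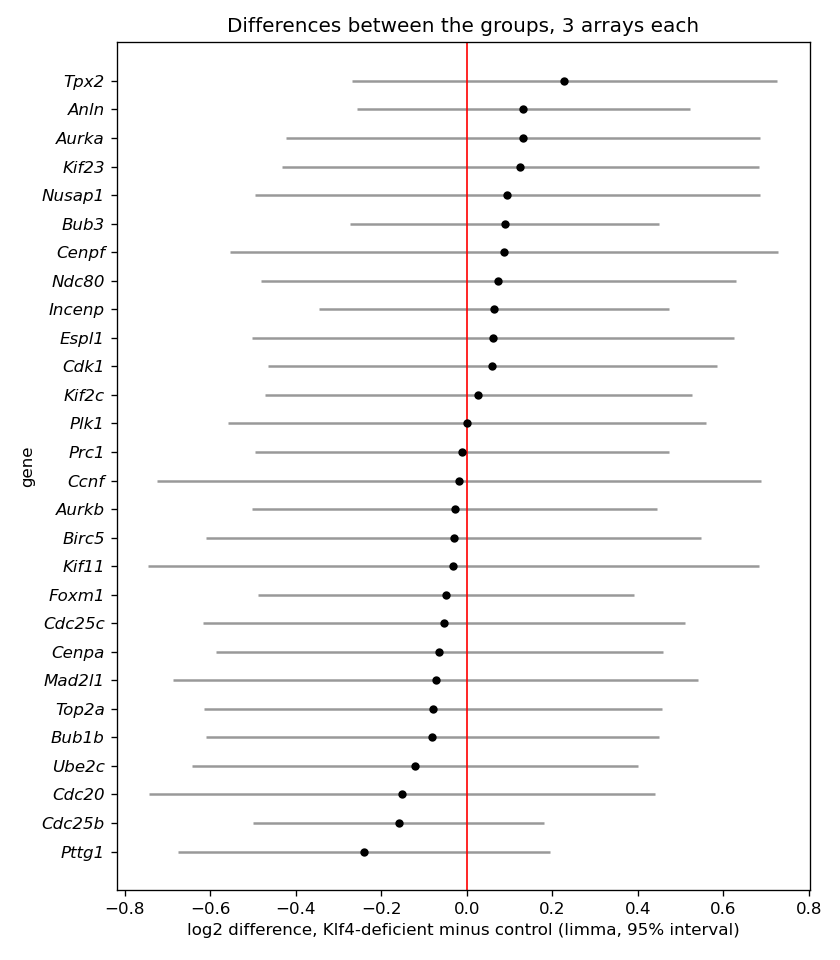
Log2 difference between the groups (x axis, Klf4-deficient minus control, quantile normalized log2 signal with 16 added) for the 28 members above background on all 6 arrays (y axis, in order of the difference). Points are limma estimates with 3 arrays per group and bars are 95% intervals; every bar crosses 0, and the points run from -0.24 (Pttg1) to 0.23 (Tpx2).

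Of the cyclins and the kinases that start mitosis, Cdk1, the mitotic kinase itself, read 2374, 2838 and 3183 on control arrays 1 to 3 and 3247, 3216 and 1822 on Klf4-deficient arrays 1 to 3. The Klf4-deficient arrays held both the highest and the lowest Cdk1 signal, and the log2 difference was 0.06 ± 0.20 (SE). Plk1, the Polo kinase that drives entry and centrosome maturation, read 1986, 2801 and 2854 in controls and 2707, 2782 and 1685 in Klf4-deficient arrays (0.00 ± 0.21). Control 1 and Klf4-deficient 3 were its low arrays, and the other four lay within a narrow band of 2707 to 2854. Foxm1, the forkhead factor that transcribes many of these genes, read 902, 907 and 1101 in controls and 1102, 962 and 623 in Klf4-deficient arrays (-0.05 ± 0.17). Klf4-deficient 3 stood apart at the low end. Ccnf, the F-box protein cyclin F, read 103, 140 and 120 in controls and 154, 127 and 72.7 in Klf4-deficient arrays (-0.02 ± 0.27). Its highest and lowest arrays were both Klf4-deficient. Ccnb2 lay between -12.9 and -6.4 on every array, so its probe reports no cyclin B2. The remaining members of this kind overlapped between the groups. The phosphatases Cdc25b and Cdc25c averaged 531 ± 50.6 and 495 ± 51.1 in controls (SD, n = 3) against 447 ± 107 and 456 ± 139. Aurora A (Aurka) averaged 1909 ± 311 against 1967 ± 519. Its activator Tpx2 averaged 150 ± 24.8 against 171 ± 35.6. Ccna2, close to the background limit, averaged 27.8 ± 4.4 against 27.4 ± 3.7.

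Among the genes of the spindle checkpoint, Bub1b (BubR1, part of the checkpoint complex) read 3703, 4624 and 4574 in controls and 4763, 4289 and 2592 in Klf4-deficient arrays, a log2 difference of -0.08 ± 0.20. Mad2l1, which binds and inhibits CDC20, read 1949, 2856 and 2725 in controls and 2694, 2537 and 1529 in Klf4-deficient arrays (-0.07 ± 0.23). Both genes had the same pair of low arrays, control 1 and Klf4-deficient 3. Bub3, which carries BubR1 to kinetochores, averaged 582 ± 39.5 in controls and 581 ± 127 in Klf4-deficient arrays (SD, n = 3).

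Of the genes that release anaphase, Cdc20, the activator of the anaphase-promoting complex, read 3116, 3996 and 4116 in controls and 4025, 3590 and 2077 in Klf4-deficient arrays. The log2 difference was -0.15 ± 0.23 (limma adjusted p = 0.900), and the groups overlapped. Ube2c, the ubiquitin-conjugating enzyme of that complex, read 36.7, 29.0 and 44.9 in controls and 41.6, 27.1 and 24.3 in Klf4-deficient arrays (-0.12 ± 0.20). It sat close to the background limit on every array. Separase (Espl1) averaged 784 ± 126 against 779 ± 223 (SD, n = 3). Securin (Pttg1), the inhibitor of separase, read 57.6, 48.7 and 61.9 in controls and 36.4, 57.8 and 35.6 in Klf4-deficient arrays. It was the single member above background that was below its control mean on Klf4-deficient 1, an array on which the other 27 were above theirs.

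At the kinetochore and centromere, Cenpf, a large outer kinetochore protein of G2 and mitosis, read 86.5, 116 and 119 in controls and 145, 117 and 74.7 in Klf4-deficient arrays (0.09 ± 0.25). The centromeric histone Cenpa averaged 12078 ± 1715 in controls and 11002 ± 3198 in Klf4-deficient arrays (SD, n = 3). Ndc80, the microtubule anchor, averaged 703 ± 84.4 against 713 ± 226. In the chromosomal passenger complex, which corrects faulty attachments, the kinase Aurkb read 1204, 1393 and 1322 in controls and 1533, 1293 and 833 in Klf4-deficient arrays (-0.03 ± 0.18). Its partner Birc5 (survivin) read 4551, 5510 and 5610 in controls and 6189, 5477 and 3129 in Klf4-deficient arrays (-0.03 ± 0.22). Both had Klf4-deficient 1 as the highest and Klf4-deficient 3 as the lowest array. Their scaffold Incenp averaged 2187 ± 166 against 2161 ± 570.

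Of the motors and the spindle and cytokinesis proteins, Kif11 (Eg5, which pushes the poles apart) had the largest SD within the Klf4-deficient group, 0.45 on the log2 scale. It read 1309, 1646 and 1761 in controls and 2043, 1510 and 901 in Klf4-deficient arrays (-0.03 ± 0.27), so that the Klf4-deficient arrays enclosed the controls. Top2a, the topoisomerase that untangles sister chromatids, read 4277, 4783 and 5189 in controls and 5582, 4689 and 2805 in Klf4-deficient arrays (-0.08 ± 0.20). It had the same order of Klf4-deficient arrays as Kif11. The depolymerase Kif2c averaged 1535 ± 253 in controls and 1458 ± 352 in Klf4-deficient arrays (SD, n = 3). For the central spindle, Kif23 averaged 2092 ± 341 against 2160 ± 599 and Prc1 averaged 6461 ± 1024 against 6076 ± 1547. Nusap1, which bundles spindle microtubules, averaged 2212 ± 424 against 2233 ± 593. Anillin (Anln), the scaffold of the cleavage furrow, averaged 1525 ± 211 against 1558 ± 326. Ect2 averaged 36.7 ± 13.2 against 34.9 ± 11.9.

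The members differed more within the groups than between them. After normalization, the mean log2 level of the 28 members, relative to each gene's control mean, was -0.23, 0.14 and 0.09 on control arrays 1 to 3 and 0.24, 0.07 and -0.30 on Klf4-deficient arrays 1 to 3. As geometric means with 16 added to each signal these are 85.3%, 110%, 106%, 118%, 105% and 80.9% of the control mean. Klf4-deficient 3 was below the control mean for 27 of the 28 members, with Tpx2 (0.03) above it. Control 1 was likewise below for 27, with Cdc25b (0.08) above it. Klf4-deficient 1 was above for 27. The SD of the 28 differences within an array was between 0.06 and 0.16. The mean departure exceeded that SD on control 1 to 3 and on Klf4-deficient 1 and 3. On Klf4-deficient 2 it did not (0.07 against an SD of 0.13), with 19 members above their control mean and 9 below. This comparison describes how alike the members were on an array. It does not test whether an array differs, since members are not replicates. The control arrays were also set against their own mean.

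**Figure D2:**
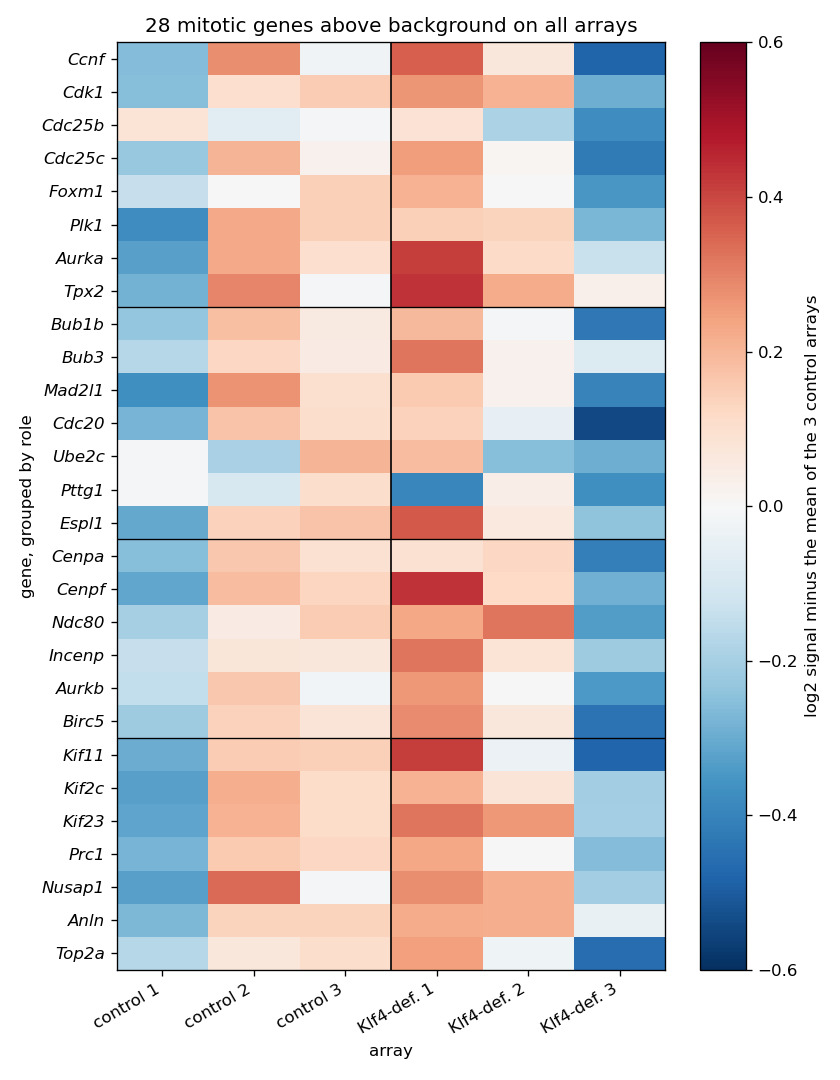
Each cell is the normalized log2 signal of a gene on an array minus the mean of the 3 control arrays (colour scale, log2), for the 28 members above background on all arrays (y axis, in 4 groups by role divided by lines) on the 6 arrays (x axis). The columns of control 1 and Klf4-deficient 3 are below the control mean for 27 of 28 genes, and that of Klf4-deficient 1 is above it for 27 of 28.

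The low arrays were the same for most members. Control 1 and Klf4-deficient 3 were the 2 lowest arrays for 24 of the 28 members (85.7%), against 12.4% of the 8361 genes above background on all arrays. Klf4-deficient 3 was the lowest array for 16 members and control 1 for 11. Klf4-deficient 1 was the highest for 19. On the deposited signal, with no normalization between arrays, the same pair was lowest for 25 members (89.3% against 11.2% of all genes), and Klf4-deficient 3 was the lowest for 27. That array also had the lowest mean signal and was the lowest for 64.8% of all genes on that scale. With arrays centred on their median, and with cyclic loess, the pair was lowest for 24 members each.

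Within the control group the SD of a member's log2 level had a median of 0.23, against 0.11 for all 8361 genes, and 26 of the 28 members exceeded that median. Within the Klf4-deficient group the median SD was 0.29 against 0.14, and all 28 exceeded it. The Klf4-deficient SD was the larger for 21 of 28 members (75.0%), and for 61.9% of all genes. Member SDs ran from 0.08 to 0.33 in controls and from 0.15 to 0.45 in Klf4-deficient arrays. These shares are descriptions, since the members shared the same arrays.

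**Figure D3:**
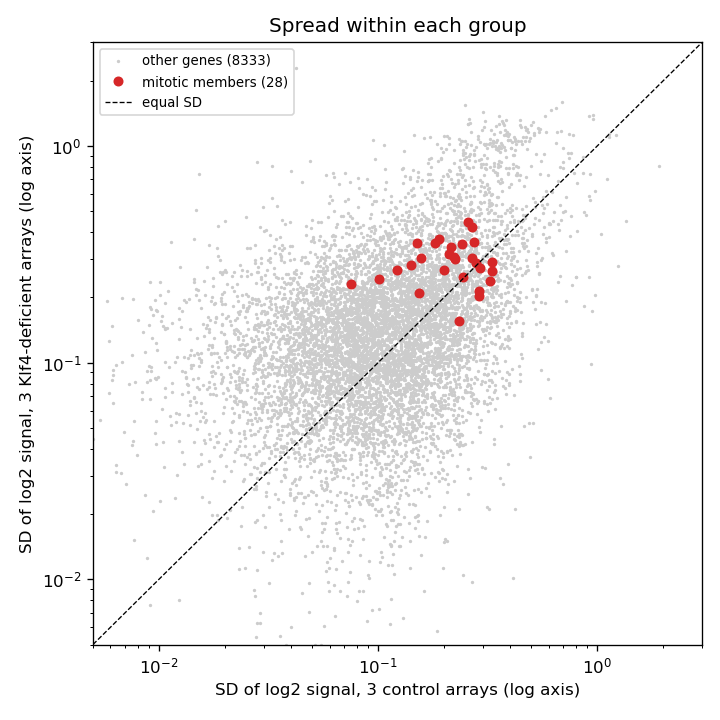
SD of the normalized log2 signal over the 3 control arrays (x axis, log scale) and over the 3 Klf4-deficient arrays (y axis, log scale), 1 point per gene above background on all 6 arrays. The 28 members (red) have median SDs of 0.23 and 0.29, against 0.11 and 0.14 for all 8361 genes, and 21 of 28 lie above the dashed line of equal SD.

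The sign of the median difference turned with single arrays. Without Klf4-deficient 3 the median of the 28 members was 0.16, 25 of them were above 0, and none had an adjusted p under 0.05. Then 5 members (Kif23, Ndc80, Cdk1, Anln and Incenp) had higher values on both remaining Klf4-deficient arrays than on any control array and Ttk had lower ones, 6 of 38 against 19.5% of all genes. Without control 1 the median was -0.12 and 2 of 28 were above 0. Without Klf4-deficient 1 it was -0.14 and 4 of 28 were above 0. Without control 2 it was 0.09, without control 3 it was 0.05, and without Klf4-deficient 2 it was -0.05. Centring arrays on their median gave a member median of -0.08, where the 8361 genes had -0.08 as well. With no normalization between arrays both medians were -0.11, and cyclic loess gave 0.02 for the members and 0.01 for all.

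Markers of other marrow cells, which the sort was meant to leave out, also varied between the arrays. Of 16 measured erythroid markers, 11 were above background on all arrays and Epb42 was below it on every array. Their mean log2 level relative to the control mean was -0.46, 0.18 and 0.28 on control arrays 1 to 3 and 0.19, 1.08 and 1.86 on Klf4-deficient arrays 1 to 3. Their summed signal ranged from 35424 to 43490 in controls and from 43415 to 60262 in Klf4-deficient arrays. Of 19 monocyte and macrophage markers, 11 were above background throughout and Cd163 on none, and the mean levels were -0.06, 0.08, -0.03, 0.25, 0.53 and 1.27 in the same order (sums of 14583 to 19386 and of 16924 to 35524). Of 17 neutrophil markers, 16 were above background throughout and Mmp8 on none, at -0.06, 0.32, -0.27, -0.20, -0.11 and 1.31 (sums of 76934 to 107198 and of 78437 to 151621). Of 12 NK and cytotoxic markers, 4 were above background throughout and Ncr1, Klrk1, Klra8, Gzmb and Eomes on none, at -0.13, 0.11, 0.02, 0.24, 0.56 and 0.57 (sums of 2105 to 3135 and of 2651 to 3561). Klf4-deficient 3 had the highest mean level of each of these 4 lists and the lowest mean of the mitotic members. For the NK list that rank was narrow (0.573 against 0.557 on Klf4-deficient 2). Its summed signal was lower on Klf4-deficient 3 (3498) than on Klf4-deficient 2 (3561). Control 1, the other array with low mitotic members, had the lowest mean level of erythroid and NK markers. Klf4-deficient 2, with erythroid markers at 1.08, had mitotic members at 0.07. The 15 double-positive T cell genes were at -0.01, -0.02, 0.03, -0.11, -0.07 and -0.13. With the mean of the 4 marker lists as a covariate, the median log2 difference of the 28 members was 0.22 with a median SE of 0.24, 27 of 28 were above 0, and 0 of 38 were called. The lists themselves had positive median log2 differences between the groups. These were 1.07 (erythroid), 0.75 (monocyte and macrophage), 0.33 (neutrophil) and 0.28 (NK and cytotoxic). The covariate thus varied with the group, and that fit cannot tell them apart. The part of these markers in the members' levels was not tested.

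**Figure D4:**
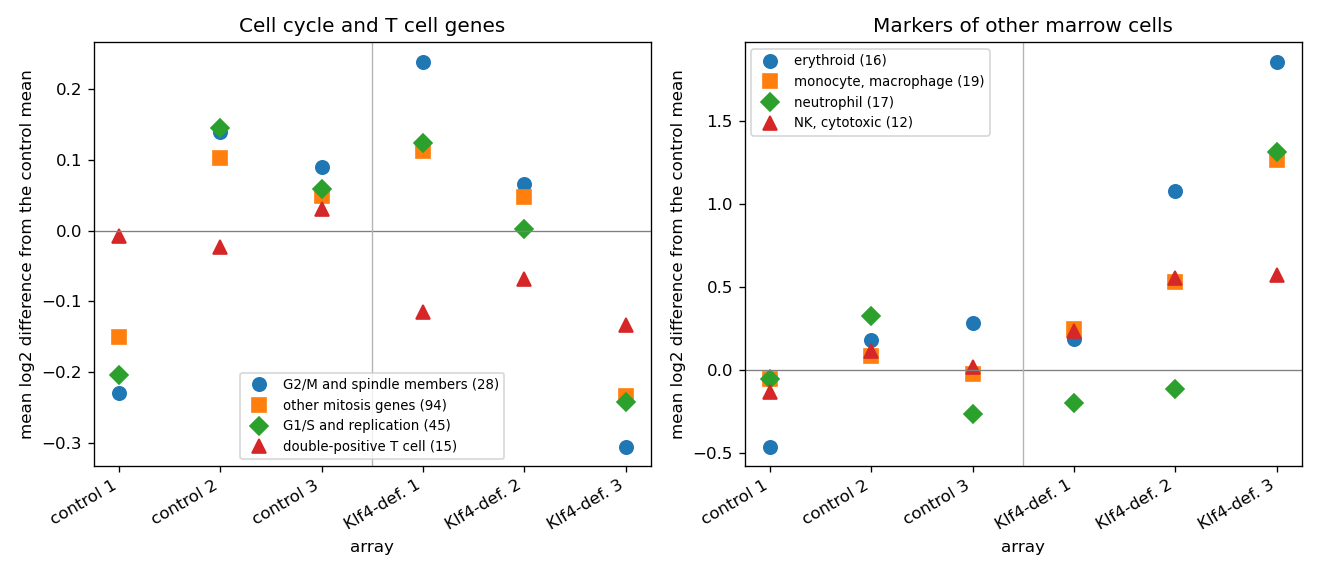
Mean log2 difference from the mean of the 3 control arrays (y axes, normalized log2 signal, different scales) for gene lists on each of the 6 arrays (x axes), with the number of genes in brackets: cell cycle and T cell genes on the left, markers of other marrow cells on the right. The mitotic members are low on control 1 (-0.23) and Klf4-deficient 3 (-0.30), while the marker lists are highest on Klf4-deficient 3, the erythroid list at 1.86.

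Control 1 and Klf4-deficient 3 were also the low arrays for other genes of the cell cycle. Of 112 other measured mitosis genes, 0 were called at an adjusted p under 0.05 in limma, against 0.0105% of all genes. An unadjusted p under 0.05 was found for 4, 1 higher and 3 lower in the Klf4-deficient arrays, against 7.6% of all genes. The groups did not overlap for 7 of the 112 (6.25%), against 11.6% of all genes. The 94 above background on all arrays averaged -0.15, 0.10, 0.05, 0.11, 0.05 and -0.23 on the 6 arrays, and control 1 and Klf4-deficient 3 were the 2 lowest for 57 of them (60.6%). Of 51 G1/S and replication genes, 0 were called, 0 had an unadjusted p under 0.05 and 2 (3.92%) had groups that did not overlap. The shares of all genes are those just given. The 45 above background averaged -0.20, 0.15, 0.06, 0.12, 0.00 and -0.24, with the same pair lowest for 29 (64.4%). Their highest array was control 2 for 22 genes and Klf4-deficient 1 for 16, while the highest array of the members was Klf4-deficient 1 for 19 of 28. Whether these lists differ from the members in this was not tested.

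Among the other mitosis genes, counts at an unadjusted p under 0.05 were 0 of 19 for mitotic entry, 1 of 15 (lower) for the anaphase-promoting complex and 1 of 33 (lower) for kinetochore and centromere, namely Nuf2, which was under the background limit on every array. They were 0 of 18 for condensin and cohesin and 2 of 27 (1 higher, 1 lower) for kinesins, spindle and cytokinesis. Of all genes, 7.6% had such a p. Cdc23, a subunit of the anaphase-promoting complex, read 872, 928 and 894 in controls and 747, 797 and 546 in Klf4-deficient arrays, a log2 difference of -0.27 ± 0.10 with a limma adjusted p of 0.636. Its groups did not overlap. Kif20b, a cytokinesis kinesin, read 322, 321 and 311 in controls and 414, 432 and 305 in Klf4-deficient arrays. After normalization its groups did not overlap (0.34 ± 0.08, limma adjusted p = 0.491), although its deposited signal on Klf4-deficient 3 was the lowest of all. Tacc1, a centrosomal coiled-coil protein, read 565, 486 and 536 in controls and 442, 411 and 406 in Klf4-deficient arrays (-0.22 ± 0.07, limma adjusted p = 0.553). Smc2, the ATPase core of condensin, read 113, 93.3 and 120 in controls and 94.5, 72.4 and 53.4 in Klf4-deficient arrays (-0.44 ± 0.18, limma adjusted p = 0.689). After normalization the groups of Tacc1 and Smc2 did not overlap either, as was so for 11.6% of all genes. None of these 4 passed the adjusted threshold.

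The values above use the probe with the highest mean for each gene. Of the 77 member probes, 47 were above background on all arrays and 25 on none. The groups did not overlap for 5 of 77 probes, against 9.9% of all 34885 probes with 1 gene symbol, and none of these 5 (Anln, Ect2, Ttk, Ndc80 and Nusap1) was above background on any array. Control 1 and Klf4-deficient 3 were the 2 lowest arrays for 39 of the 47 probes above background (83.0%). Among the 13 genes with at least 2 such probes, the sign of the log2 difference was the same for all probes of 10 genes and mixed for Bub3, Kif23 and Top2a. The range between probes of a gene had a median of 0.07 and reached 0.37 for Kif23, whose brightest probe gave 0.13 ± 0.21 and whose dimmest gave -0.24 ± 0.19.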

How the data were processed

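Total RNA of 6 samples was labelled with biotin and hybridised to Illumina bead arrays by a service company, per the labels. The authors deposited linear probe intensity from BeadStudio, as the submitters' processing notes name it. How background was subtracted, and whether arrays were normalized, is not given in the sources used here. Between 31.3% and 34.2% of the values of an array lie below 0.

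After a floor of 0 and an offset of 16, values were taken to log2 and quantile normalized. The gene tests used the 34885 of 45281 probes that the platform annotation gives 1 symbol; those with several (18) or none (10378) were left out. The probe with the highest mean stood for each of 19057 genes, a choice among several probes for 9172. Groups were compared with limma 3.58.1 in R 4.3.3 (lmFit, eBayes with a variance trend, Benjamini-Hochberg over all genes, threshold 0.05). The procedure was also run on simulated data with independent noise for each gene and array. That simulation lacks the shifts shared by many genes on an array, so it does not show how the procedure behaves under them. An exact permutation test of 3 against 3 arrays cannot give a p under 0.05, so none was run.

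The members and lists were chosen with earlier results of these data known. Signal per array was given for 10 genes of long-standing use as mitotic markers, for members with a p under 0.05, and for the 5 with the largest SD within groups among those above background on all arrays; Tpx2 and Pttg1 were named after their values were seen. For each related list, up to 3 genes above background were picked by smallest p. Of the picks among other mitosis genes, only those with groups that did not overlap are named, and the overlapping ones are left out. No pick of the G1/S list is named. Nuf2 was named after its value was seen. Alternatives were other normalizations, offsets, filters, moderation, array weights, probe rules, a marker covariate, the replicate number as a block, and leaving out each array.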

Additional observations from a re-analysis of the deposited data

How the results depend on the processing

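In all 20 alternatives, 0 members had an adjusted p under 0.05. The median log2 difference of the members tested, reported as -0.01, ran from -0.10 (without control 1) to 0.18 (marker covariate). Its sign thus depended on the arrays and settings used. With the median of the arrays as centre, Cdk1 was at -0.031 and Plk1 at -0.082. With no normalization these were at -0.057 and -0.11. Cyclic loess put Ccnf at 0.040. Array weights put Ccnf at 0.048, Aurkb at 0.0093 and Birc5 at 0.017. The marker covariate put Ccnf at 0.32, Foxm1 at 0.21, Bub1b at 0.17, Mad2l1 at 0.12, Cdc20 at 0.13, Ube2c at 0.11, Aurkb at 0.22, Birc5 at 0.28, Kif11 at 0.33 and Top2a at 0.23. Each of these has the opposite sign to the reported value, none passed the threshold, and the cause was not tested. Members with an unadjusted p under 0.05 numbered 0 with an offset of 1, with genes above background or brighter genes only, with the covariate and with probes averaged per gene (7.04% to 10.7% of all genes there), and 4 with every probe (6.28% of all probes). Members with groups that do not overlap numbered 0 with genes above background (18.1% of all genes), brighter genes (17.2%) and the mean of probes (11%), and 5 with every probe (9.9% of all probes). The filters leave out Ttk.

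Leaving out 1 array at a time gave 0 to 2 of 38 members with an unadjusted p under 0.05, where 6.07% to 9.29% of all genes had one, and 2 to 6 with groups that do not overlap, against 17.6% to 22.4% of all genes. The log2 differences then ran from -0.067 to 0.23 for Cdk1, from -0.19 to 0.14 for Plk1, from -0.20 to 0.21 for Ccnf, from -0.18 to 0.10 for Foxm1, from -0.22 to 0.093 for Bub1b and from -0.26 to 0.092 for Mad2l1. They ran from -0.29 to 0.043 for Cdc20, from -0.084 to 0.28 for Cenpf, from -0.17 to 0.13 for Aurkb, from -0.18 to 0.17 for Birc5, from -0.26 to 0.19 for Kif11 and from -0.24 to 0.11 for Top2a. Tpx2, Pttg1 and Ube2c kept their sign. With the replicate number as a block, 0 members were called and the median stayed at -0.01. Deviations of same-numbered arrays correlated at 0.15, -0.03 and -0.24, and those of differently numbered arrays at -0.29 to 0.25. With 3 arrays per group these values cannot tell whether same-numbered samples were paired. The limits are 3 arrays per group and, for 10 members, a signal not above background on every array.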
